A study of Homo sapiens with 6 samples.

Results

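The forkhead transcription factors FOXP1, FOXP2, FOXP4, FOXO1, FOXO3 and FOXO4 were followed in A549 cells with and without the MIR21 gene. The 6 genes were taken by symbol from the 58174 genes of the deposited table, and they were chosen with earlier results of these data known. FOXP1 had been named by the study from the same libraries, with predicted pairing sites and tumor data, and its direction here is therefore not independent evidence. The study also reports higher FOXP1 protein in MIR21-KO cells, and higher FOXP1 mRNA in another lung cancer line without MIR21. Higher FOXP1 mRNA is further reported there for unedited cells and mouse xenografts given circular RNA decoys of the mature MIR21 product. Those assays are not among the libraries followed here. A549 is an established human cell line from a lung adenocarcinoma. Ctrl denotes the parental cells, and MIR21-KO denotes A549 cells from which MIR21 had been removed by Cas9 guided by a pair of sgRNAs and which had been grown from single sorted cells. Neither group received another treatment according to the labels, and cells were harvested 48 hours after seeding. PolyA RNA was sequenced from 3 Ctrl and 3 MIR21-KO libraries. How many clones the MIR21-KO libraries represent is not given in the sources used here. An effect of the deletion and of clonal selection therefore cannot be told apart in these libraries. The study describes its replicates as independent samples, and p-values measure the spread between these libraries.

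Forkhead proteins bind DNA through a shared winged-helix domain. FOXO factors activate genes for cell cycle arrest, stress defense, autophagy and cell death, and growth factor signaling through PI3K and AKT holds them in the cytoplasm by phosphorylation, so that their mRNA level does not report their activity. FOXP factors act mostly as repressors, pair with one another through a leucine zipper, and take part in the development of the lung epithelium.

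The mature product of the deleted gene and its pairing sites in the members are shown because the genotype removes this small RNA. The mature strand, on the plus strand of chromosome 17 at 59841273 to 59841294 (GRCh38.p14, RefSeq), is printed 5′ to 3′ with the seed, bases 2 to 8, in capitals.
hsa-miR-21-5p: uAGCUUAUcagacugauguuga
The DNA word that pairs with this seed is ATAAGCT. It was searched on the transcript strand of the longest 3′ UTR of each member in GENCODE 29 (GRCh38), and 3 members held it. The following windows of 22 bases carry every copy found, with the word in capitals.
FOXP1, minus strand, chr3:70956858-70956879: actcccatccactcATAAGCTt
FOXO1, minus strand, chr13:40555723-40555744: tctaattatgcagaATAAGCTc
FOXO3 first copy, plus strand, chr6:108680978-108680999: ctgattttttaaatATAAGCTt
FOXO3 second copy, plus strand, chr6:108682828-108682849: cccttggcctctaaATAAGCTg
The copy in FOXP1 began at base 2382 of a 3′ UTR of 6430 bases. The copy in FOXO1 lay at base 3319 of 3382, close to the end of the annotated UTR. The copies in FOXO3 began at bases 1200 and 3050 of 4982. None of the 4 copies is followed by an A, so none extends to the longest class of seed match. FOXP2 held only the shorter word TAAGCT followed by an A, and FOXP4 and FOXO4 held neither word. Among the 11657 tested protein-coding genes with a 3′ UTR, 1231 (10.6%) held ATAAGCT, and 3433 (29.4%) held at least TAAGCT, which is contained in the longer word. A longer UTR offers more places for a match. The shares were not matched to the UTR lengths of the members, so they are no measure of enrichment. A match is a description of the letters and was not tested as a site here. The study did test a FOXP1 segment with a seed match in luciferase reporters, and reports higher activity in MIR21-KO cells. Whether that segment holds the copy printed above was not checked.

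Levels are given as FPKM, the deposited read count scaled by gene length and library size. Comparisons between genes rest on the counted length, which was 13628 bases for FOXP1 (76 annotated transcripts) and 6170 for FOXP4 (6). The libraries held between 10631667 (Ctrl replicate 2) and 14345209 (MIR21-KO replicate 1) reads, as recovered from the FPKM steps. Libraries of 1 group resembled each other more (r = 0.933 to 0.959 across genes, which are not independent) than libraries of different groups (0.896 to 0.912). MIR21-KO replicates 1 and 3 lay furthest apart, with a chi-square per degree of freedom of their read counts of 32.8. MIR21-KO replicate 2 gave 7.7 against replicate 1 and 11.9 against replicate 3, where the pairs of Ctrl libraries gave 2.69 to 5.3. Without MIR21-KO replicate 3 the log2 fold changes of the members were 1.08 for FOXP1 (FDR = 0.000840), 0.18 for FOXO1 (0.483), 0.10 for FOXO3 (0.575), 0.73 for FOXO4 (0.0243) and -0.09 for FOXP4 (0.298). MIR21 itself was listed at 0 in every library. PolyA libraries do not capture the mature small RNA, so this does not check the labels. VMP1, the gene whose 3′ part overlaps MIR21, averaged 75.1 ± 3.83 FPKM in the Ctrl libraries and 142.5 ± 7.18 FPKM in those of MIR21-KO (SD over 3 libraries; log2 fold change 0.92, FDR = 0.000473 by limma). All 5 epithelial markers were above the detection filter. Their summed level was 1194 to 1288 FPKM in Ctrl and 776 to 1106 in MIR21-KO, and CDH1 (E-cadherin) was lower in MIR21-KO (8.18 ± 0.584 to 2.86 ± 0.148 FPKM, FDR = 0.000175). KRT18 was at 673 and 422 FPKM (FDR = 0.0153), while KRT8, KRT19 and EPCAM had FDRs of 0.207, 0.206 and 0.273. The lymphocyte markers CD3E and MS4A1 were listed at 0 in every library. The 3 endothelial markers were under 0.5 FPKM, and the 4 fibroblast markers summed to 5.37 to 5.84 FPKM in Ctrl and 4.80 to 7.02 in MIR21-KO.

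Of the 5 members that passed the filter on low values, a mean of at least 0.5 FPKM, FOXP1 was the only one called at an FDR under 0.01, and it was higher in MIR21-KO cells. The same rule called 16.0% of the 16006 genes tested (7.66% higher and 8.38% lower), so 1 call among 5 genes is near the background. The groups did not overlap for 3 of the 5 (FOXP1, FOXP4 and FOXO4), against 48.1% of all genes tested. In bulk RNA, fewer cells expressing a gene and less RNA per cell cannot be told apart.

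FOXP1, a repressor expressed in many epithelia, spans 70952817 to 71583993 on the minus strand of chromosome 3. Its level was 2.43, 2.44 and 2.47 FPKM in Ctrl replicates 1 to 3 and 5.28, 5.26 and 6.32 FPKM in MIR21-KO replicates 1 to 3. All MIR21-KO libraries were above all Ctrl libraries, MIR21-KO replicate 3 was the highest, and the Ctrl libraries lay within a narrow range. The means were 2.45 ± 0.0182 and 5.62 ± 0.607 FPKM (SD, n = 3 each). The log2 fold change was 1.16 with a standard error of 0.11 and a 95% interval of 0.90 to 1.43 (FDR = 0.000645 by limma), and 8.75% of all genes tested had a larger change in either direction. The values rest on 358 to 460 reads per Ctrl library and 878 to 1118 per MIR21-KO library. An antisense gene, AC097634.3, shares exon positions with FOXP1 and was at 0.218 FPKM in Ctrl and 0.125 in MIR21-KO. The strand setting of the counting is not given in the sources used here. The intronic transcript FOXP1-IT1 was near 0 in both groups (0.0291 and 0.0150 FPKM).

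FOXP4, the close relative with which FOXP1 forms heterodimers, was the most abundant member in both groups by FPKM. By reads, FOXP1 had more in the MIR21-KO libraries (981, 878 and 1118) than FOXP4 (740, 656 and 685). FOXP4 is encoded on the plus strand of chromosome 6 at 41546426 to 41602384. It measured 9.28, 9.28 and 9.44 FPKM in the Ctrl libraries and 8.80, 8.68 and 8.56 FPKM in the MIR21-KO libraries. Each MIR21-KO value was below each Ctrl value, but the distance was small. The log2 fold change was -0.10 ± 0.068 (SE; 95% interval -0.27 to 0.06; FDR = 0.290 by limma). The interval leaves out a change of the size seen for FOXP1 in either direction. FOXP4-AS1, a noncoding gene on the opposite strand whose exons do not overlap those of FOXP4, was at 1.17 ± 0.227 and 2.003 ± 0.619 FPKM (log2 fold change 0.70, FDR = 0.0739), on 12 to 31 reads per library.

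FOXP2, known for its role in speech and brain development and also present in distal lung epithelium, was listed at 0 in all 6 libraries. It spans 114086327 to 114693772 on the plus strand of chromosome 7. With a counted length of 16152 bases, a count of 0 allows a level of up to 0.0136 to 0.0173 FPKM depending on the library (3 reads, counting error only). The 37 mitochondrial genes, which every cell uses, are also listed at 0 in every library, so a listed 0 can come from processing. FOXP2 was not tested.

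**Figure D1:**
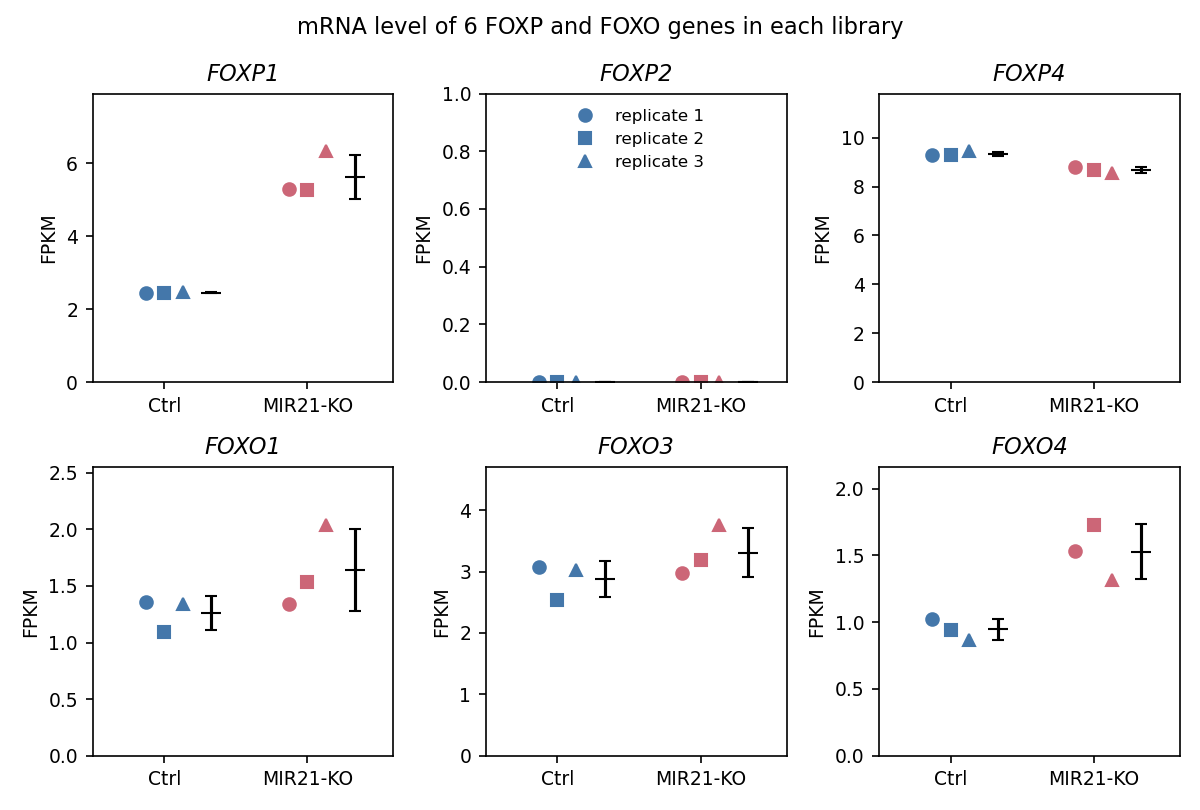
Level of each member in FPKM (vertical axes, from 0) in the 3 Ctrl and 3 MIR21-KO libraries, with 1 symbol per library and the mean ± SD (n = 3) in black beside them. FOXP1 was at 2.43 to 2.47 FPKM in Ctrl and 5.26 to 6.32 in MIR21-KO, FOXP4 and FOXO4 also did not overlap between groups, FOXO1 and FOXO3 did, and FOXP2 was listed at 0.

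FOXO3, an activator linked to stress resistance and longevity, lies on the plus strand of chromosome 6 at 108559835 to 108684774. It measured 3.07, 2.54 and 3.03 FPKM in Ctrl and 2.99, 3.18 and 3.76 FPKM in MIR21-KO. The groups overlapped, with MIR21-KO replicate 1 below 2 of the Ctrl libraries and MIR21-KO replicate 3 the highest. The log2 fold change was 0.19 ± 0.137 (SE; 95% interval -0.13 to 0.52; FDR = 0.325 by limma). FOXO3B, a processed pseudogene on chromosome 17 with a sequence nearly identical to that of FOXO3, was at 2.76 ± 0.376 FPKM in Ctrl and 3.02 ± 0.815 in MIR21-KO (log2 fold change 0.10, FDR = 0.742), a difference whose sign turned without Ctrl replicate 3 or MIR21-KO replicate 3. Reads of these copies could be assigned to either, so the split between them is uncertain. Their summed FPKM was 5.64 ± 0.272 in Ctrl and 6.33 ± 1.21 in MIR21-KO. This sum also depends on the split, because the counted lengths were 7721 bases for FOXO3 and 1928 for FOXO3B.

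FOXO1, the member best known for insulin-regulated metabolism, lies on the minus strand of chromosome 13 at 40469953 to 40666597. It measured 1.36, 1.09 and 1.34 FPKM in Ctrl and 1.34, 1.53 and 2.04 FPKM in MIR21-KO. MIR21-KO replicate 1 lay within the Ctrl range and MIR21-KO replicate 3 above all other libraries. The log2 fold change was 0.34 ± 0.200 (SE; 95% interval -0.14 to 0.82; FDR = 0.241 by limma).

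FOXO4, the shortest of the FOXO genes described here, is encoded on chromosome X at 71096197 to 71103535 on the plus strand. By group mean it was the least abundant member with reads, but in MIR21-KO its values overlapped those of FOXO1. FOXO4 measured 1.03, 0.944 and 0.870 FPKM in Ctrl and 1.53, 1.73 and 1.32 FPKM in MIR21-KO. All MIR21-KO libraries were above all Ctrl libraries. The means were 0.946 ± 0.0780 and 1.53 ± 0.205 FPKM (SD, n = 3 each), and the log2 fold change was 0.63 with a standard error of 0.18 and a 95% interval of 0.22 to 1.05. The FDR of 0.0333 by limma did not pass 0.01, but would pass a threshold of 0.05. FOXO4 rests on 35 to 45 reads per Ctrl library and 59 to 73 per MIR21-KO library, the fewest of the members tested.

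FOXP1 kept an FDR under 0.01 in all 15 alternative settings, with a log2 fold change of 0.94 to 1.21. FOXO4 had a log2 fold change of 0.37 to 0.73 and FDRs of 0.0165 to 0.132 in the same settings, and FDRs of FOXP4, FOXO1 and FOXO3 stayed above 0.05 throughout.

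**Figure D2:**
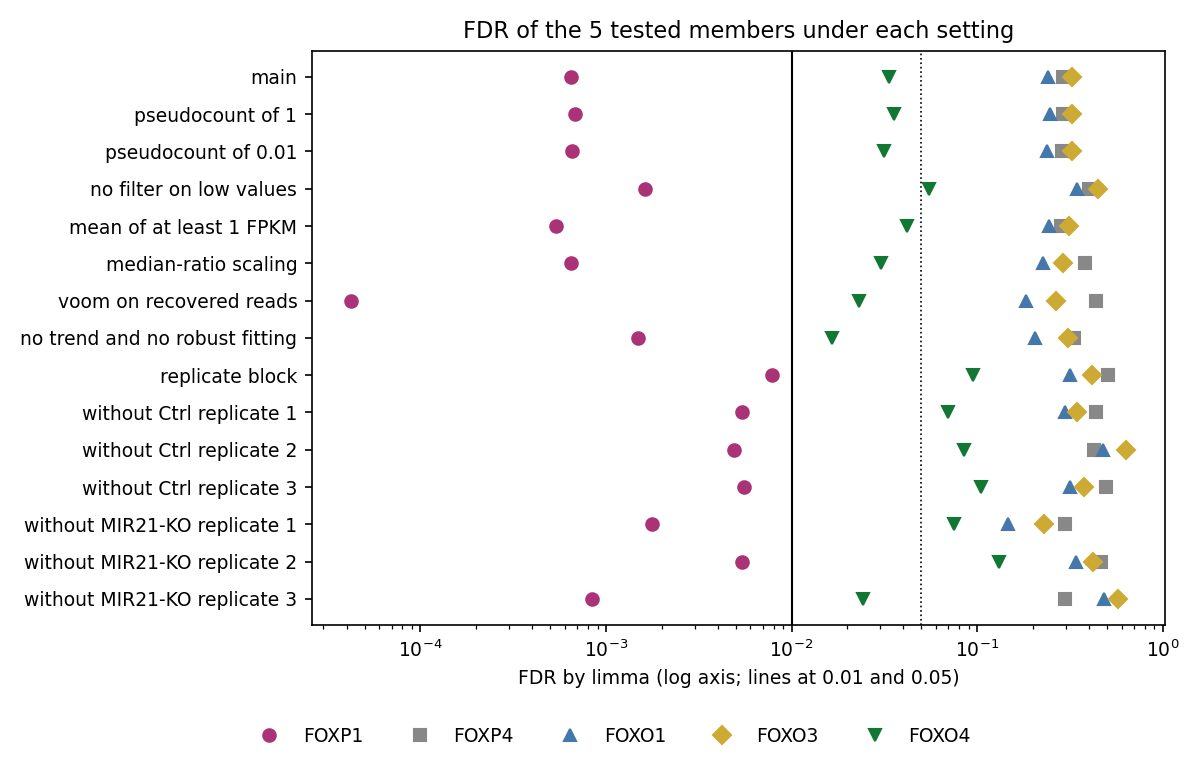
FDR by limma (horizontal log axis) of the 5 members tested in the reported fit and in each alternative that changes the fit (rows), with lines at 0.01 (solid) and 0.05 (dotted). FOXP1 stayed left of 0.01, FOXO4 lay between 0.0165 and 0.132, and FOXP4, FOXO1 and FOXO3 lay right of both lines.

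The order by FPKM, which depends on the counted lengths, was FOXP4, FOXO3, FOXP1, FOXO1, FOXO4 and FOXP2 in Ctrl cells. No neighbors in this order overlapped. In MIR21-KO cells FOXP1 stood above FOXO3, without overlap, and FOXO1 and FOXO4 overlapped. Averaged over all libraries, FOXP4 stood at the 68.8th percentile of the genes tested, FOXP1 at 47.0, FOXO3 at 40.0, FOXO1 at 22.7 and FOXO4 at 19.1.

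The make-up of the summed FOXP FPKM differed between the groups. The size of shares and factors between genes depends on the counted lengths. FOXP1 contributed 20.8, 20.8 and 20.7% of the summed FOXP level in the Ctrl libraries and 37.5, 37.7 and 42.5% in the MIR21-KO libraries. The FOXP sum was 11.8 ± 0.112 FPKM in Ctrl and 14.3 ± 0.505 in MIR21-KO, and FOXP4 exceeded FOXP1 by a factor of 3.81 ± 0.0132 in Ctrl and 1.56 ± 0.176 in MIR21-KO. The FOXO sum was 5.09 ± 0.461 FPKM in Ctrl and 6.48 ± 0.633 in MIR21-KO. FOXO3 made up 56.6 ± 1.18% of it in Ctrl and 51.1 ± 1.73% in MIR21-KO, FOXO1 24.8 ± 0.876% and 25.1 ± 3.09%, and FOXO4 18.7 ± 2.02% and 23.8 ± 4.62%. The share of FOXO3 did not overlap between the groups, whereas the shares of FOXO1 and FOXO4 did.

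**Figure D3:**
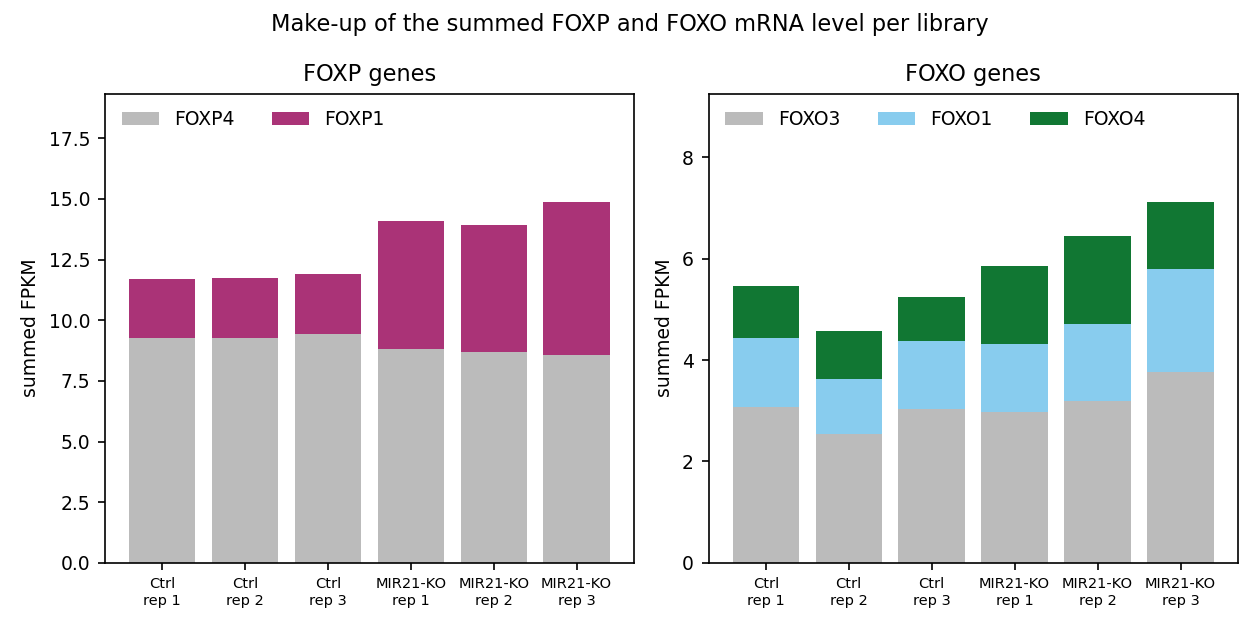
Summed FPKM (vertical axes, from 0) of the FOXP genes (left) and the FOXO genes (right) in each library, stacked by gene. FOXP1 made up 20.7 to 20.8% of the FOXP sum in Ctrl and 37.5 to 42.5% in MIR21-KO, and FOXO3 was the largest FOXO component in all 6 libraries.

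Ratios between members within a library were taken on log2(FPKM + 0.1) and compared for all 10 pairs. The added 0.1 leaves a slight dependence on library scaling and makes them differ from plain FPKM ratios. The ratio of FOXP1 to FOXP4 went from a mean log2 value of -1.89 in Ctrl to -0.62 in MIR21-KO, a difference of 1.27, and that of FOXP1 to FOXO3 went from -0.22 to 0.75, a difference of 0.97. Relative to FOXO1 the difference for FOXP1 was 0.82, and relative to FOXO4 it was 0.53. The ratio of FOXP4 to FOXO4 was lower in MIR21-KO, with a difference of -0.74. These groups did not overlap, as was the case for 8 of the 10 pairs. The pairs share members and are not independent, so this count partly restates the values of single members. Among single genes tested, 48.1% did not overlap, and the share among pairs of other genes was not computed. FOXO1 to FOXO4 and FOXO3 to FOXO4 were the pairs that overlapped. The exact two-sided permutation test of 3 against 3 libraries cannot give less than p = 0.1, which the 8 pairs reached (0.125 after Benjamini-Hochberg adjustment over the 10 pairs), and the others gave p = 0.4 and 0.2. No pair could therefore pass 0.05.

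The genes with a pattern most like that of each member were sought among 11718 protein-coding genes tested, by Pearson correlation of log2 FPKM over the 6 libraries. For FOXP1 these were RAB27A (r = 0.9996), ANTXR2 and NT5E, which also were higher in MIR21-KO (log2 fold changes 1.19, 1.39 and 0.96). For FOXP4 they were IMP4, ZNF629 and CHCHD7, for FOXO1 SLC33A1, ZMAT3 and ZNF160, for FOXO3 FAM217B, FUT11 and SPG11, and for FOXO4 GEMIN8, DUSP15 and EVI2B, with r down to 0.990 (ZNF160). With 6 libraries in 2 groups and so many genes searched, coefficients of this size are a description only.

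Among the other forkhead genes, members of the family with roles in the endoderm and in proliferation stood on both sides. Of 40 listed, including pseudogenes, 24 were tested, and 4 were called higher and 3 lower (29.2% called, median log2 fold change 0.09, against 16.0% and -0.02 for all genes tested). The share counts FOXA3, which passed the filter only through its Ctrl level. FOXD1, a factor of the kidney stroma, was at 8.15, 7.80 and 11.0 FPKM in Ctrl and 45.9, 40.2 and 38.5 in MIR21-KO (log2 fold change 2.21 ± 0.146, FDR = 0.000186 by limma). The FOXA factors, which open chromatin in endoderm and lung, did not move in 1 direction. FOXA2 was at 16.3 ± 0.687 FPKM in Ctrl and 9.06 ± 0.619 in MIR21-KO (-0.84), and FOXA3 was at 2.33 ± 0.365 and 0.375 ± 0.115 (-2.37), whereas FOXA1 was higher, at 0.606 ± 0.152 and 2.38 ± 0.723 (1.80). FOXM1, a driver of mitotic gene expression, was lower (37.2 to 21.9 FPKM, -0.76). FOXS1 (1.17 to 3.36 FPKM) and FOXK1 (6.23 to 9.45 FPKM) were higher. FOXD1, FOXA2 and FOXA3 kept their calls in all 15 alternatives. FOXA1 and FOXK1 lost theirs without any 1 of the Ctrl libraries (FDR 0.0123 to 0.0164) and without MIR21-KO replicate 2 (0.0169 and 0.0202). FOXM1 lost its call without Ctrl replicate 1 (0.0118) or 3 (0.0128), and FOXS1 without Ctrl replicate 2 or 3 or MIR21-KO replicate 1 or 2 (0.0121 to 0.0195). With all 6 libraries, FOXS1 also lost its call when no filter on low values was used (0.0110). Over all 15 alternatives, FOXA1 and FOXK1 lost their calls in 5, FOXM1 in 3 and FOXS1 in 6, with FDRs up to 0.0235 (FOXK1). The list as a whole had 3 or 4 calls without any 1 of the Ctrl libraries or MIR21-KO replicate 2. It had 9 when MIR21-KO replicate 3 was left out. The number of genes called across the whole table also changed with the library left out, and it was highest without MIR21-KO replicate 3. Among relatives of the members, FOXO6 was at 0.742 and 0.851 FPKM (FDR = 0.654), and FOXP3, the factor of regulatory T cells, was under the filter at 0.164 and 0.166.

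**Figure D4:**
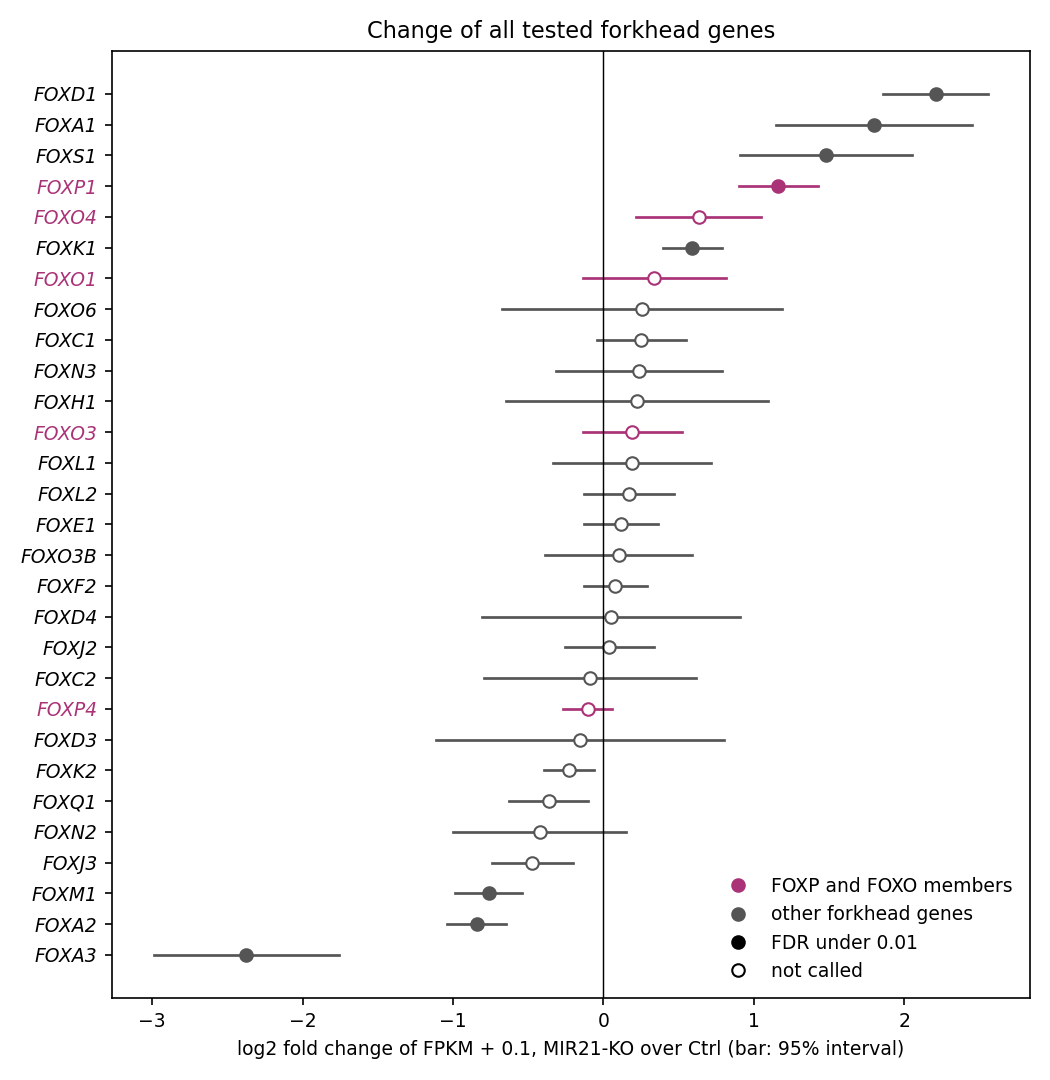
Log2 fold change of FPKM + 0.1 in MIR21-KO over Ctrl (horizontal axis) with its 95% interval for the 5 members (purple) and the 24 other forkhead genes tested (grey), filled where the FDR was under 0.01. FOXD1 at 2.21 and FOXA3 at -2.37 mark the ends, and FOXP1 at 1.16 is the only member with a filled point.

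The lists of genes around the members were described by counts. Their counts in other settings stand beside whole-table counts, given in the last section, that also changed. IGFBP1, NFATC2, MUC5AC, SPDEF and, among the forkhead genes, FOXA3 were under 0.5 FPKM in 1 group and passed the filter only through the group where they were high, so their calls add no support to the counts of their lists. The kinases, lipid enzymes and receptors upstream of FOXO gave 1 call. Of 17 genes, 15 were tested, none was called higher and 1 lower, with a median log2 fold change of -0.03. The share called was 6.67%, against 16.0% of all genes tested. Voom on recovered reads called 6 genes of this list, 2 higher and 4 lower, whereas no call was left without the filter on low values or without trend and robust fitting. Across all 16006 genes voom called 3432, against 2568 in the reported fit. The call was IRS1, the adaptor that links the insulin and IGF receptors to PI3K, at 17.9, 14.6 and 16.6 FPKM in Ctrl and 8.64, 9.82 and 11.0 in MIR21-KO (-0.73 ± 0.119, FDR = 0.00499 by limma). Its groups did not overlap, but the call was lost without any 1 of the Ctrl libraries or MIR21-KO replicate 2 (FDR 0.0120 to 0.0261). Without MIR21-KO replicate 3, 4 genes of the list were called, in a setting where calls across all genes were also more numerous.

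Of 22 genes that bind or modify FOXO proteins, 21 were tested, with 1 called higher and 3 lower (median -0.13). The share called, 19.0%, was near the 16.0% of all genes tested. SKP2, the ubiquitin ligase subunit that targets FOXO1 for degradation, rose from 8.23 ± 0.608 to 15.6 ± 1.79 FPKM (0.91, FDR = 0.00161). Lower were USP7, a deubiquitinase acting on FOXO4, at 21.8 and 15.6 FPKM, YWHAH, a 14-3-3 protein that retains phosphorylated FOXO in the cytoplasm, at 55.1 and 39.9, and the cell cycle kinase CDK2 at 18.2 and 13.1. SKP2 and CDK2 had been named by the study, so their directions are not independent evidence. The 3 lower calls were lost without any 1 of the Ctrl libraries or MIR21-KO replicate 2 (FDR 0.0195 to 0.0313), and that of SKP2 without Ctrl replicate 3 (0.0108) or MIR21-KO replicate 2 (0.0122). Over all 15 alternatives, CDK2 lost its call in 7, USP7 and YWHAH in 6 and SKP2 in 3. Without MIR21-KO replicate 3, 8 genes of the list were called, and calls across all genes were also more numerous in that setting.

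Known FOXO target genes, the list with FBXO32, GABARAPL1 and CAT, had calls mostly on the higher side. Of 32 genes, 24 were tested, and 8 were called higher and 2 lower (41.7% called, median log2 fold change 0.38, against 16.0% and -0.02 for all genes tested). The share counts IGFBP1, which passed the filter only through its Ctrl level. FBXO32 (atrogin-1), a muscle atrophy ubiquitin ligase, measured 2.55, 2.41 and 2.55 FPKM in Ctrl and 12.6, 14.7 and 15.5 in MIR21-KO (2.46 ± 0.103, FDR = 4.19e-05 by limma). GABARAPL1, an autophagosome protein, was at 3.94, 3.94 and 3.99 FPKM in Ctrl and 11.5, 11.8 and 10.7 in MIR21-KO (1.49 ± 0.0801). CAT, the peroxide-degrading catalase, was at 21.4, 19.9 and 23.3 FPKM and 46.5, 42.8 and 45.4 FPKM (1.06 ± 0.0828). For each of the 3 genes the MIR21-KO libraries lay far above the Ctrl libraries and apart from them. The other 5 higher calls, named after their values were seen, were BCL6 (1.32), SOD2 (0.78), GADD45A (0.74), SESN1 (0.60) and MAP1LC3B (0.36), of which SOD2 alone kept its call in all 15 alternatives. Without MIR21-KO replicate 2, for example, the FDRs of the other 4 were between 0.0121 and 0.0390, and without Ctrl replicate 3 they were between 0.0139 and 0.0401. The number of calls in the list fell from 10 to 6 without Ctrl replicate 2, Ctrl replicate 3 or MIR21-KO replicate 2. Across all genes, calls were fewest without MIR21-KO replicate 2.

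IGFBP1, a classic insulin-repressed FOXO target that sequesters IGF, went the other way, from 6.08, 4.95 and 4.29 FPKM in Ctrl to 0.311, 0.346 and 0.140 in MIR21-KO. Only 3 to 7 reads remained in the MIR21-KO libraries, and the log2 fold change of -3.87 ranged from -2.26 to -4.30 over the alternatives. BNIP3, a mitophagy receptor, was at 13.5 ± 0.452 and 8.08 ± 0.551 FPKM (-0.74, FDR = 0.00114). CDKN1A and CDKN1B, which encode the cell cycle inhibitors p21 and p27 and are often taken as FOXO readouts, were not called (0.27, FDR = 0.0736, and -0.04, FDR = 0.739).

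Of 20 partners of FOXP proteins, which include the subunits of the NuRD and CtBP corepressor complexes, 18 were tested. Of these 1 was called higher and 1 lower (11.1% called, against 16.0% of all genes tested), and the median was -0.03. GATAD2A, a NuRD subunit, was at 12.8, 12.9 and 12.7 FPKM in Ctrl and 7.69, 8.27 and 7.84 in MIR21-KO (-0.68 ± 0.0705, FDR = 0.000884 by limma). NFATC2, a calcium-responsive factor that forms complexes with FOXP proteins, was at 0.450 ± 0.0960 and 1.86 ± 0.588 FPKM (1.80, FDR = 0.00410), and lost its call without any 1 of the Ctrl libraries or MIR21-KO replicate 2 (0.0139 to 0.0219). Over all 15 alternatives NFATC2 lost its call in 5.

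Of 14 lung and airway epithelial genes studied in connection with FOXP factors, 5 were tested (80.0% called, against 16.0% of all genes tested). That share rests on few genes and counts MUC5AC and SPDEF. AGR2 and SOX2 were called lower, and so were MUC5AC and SPDEF, which could be tested only because of their Ctrl level. With a mean of at least 1 FPKM, 3 genes were tested and 2 were called, both lower. AGR2, a disulfide isomerase of secretory cells, was at 17.8, 21.5 and 23.8 FPKM in Ctrl and 2.86, 1.52 and 1.92 in MIR21-KO (-3.30 ± 0.229, FDR = 0.000222 by limma). SOX2, a factor of airway progenitors, was at 4.16 ± 0.756 and 0.817 ± 0.0885 FPKM (-2.21). MUC5AC, the gel-forming mucin of goblet cells, was at 1.75 ± 0.261 and 0.0220 ± 0.00326 FPKM, the latter on 4 to 6 reads per library, so its fold change depends on the pseudocount. SPDEF, the goblet cell regulator, was at 1.65 ± 0.163 and 0.0914 ± 0.0808 FPKM. The calls of MUC5AC (without Ctrl replicate 1 or 3, FDR 0.0147 and 0.0133) and SPDEF (without any 1 of the Ctrl libraries, 0.0186 to 0.0219) were lost in smaller sets, and that of SPDEF also with all 6 libraries at a pseudocount of 0.01 (FDR = 0.0210). Over the 14 alternatives that tested it, SPDEF lost its call in 5. The fifth gene tested, GATA6, had a log2 fold change of 0.52 and was not called. The surfactant gene SFTPA1, the club cell gene SCGB1A1, PDPN and HOPX were listed at 0 in all libraries, as was NKX2-1, the lung lineage factor of the partner list. CDH1 was lower in the same libraries, as given above, and its part in these values was not tested.

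**Figure D5:**
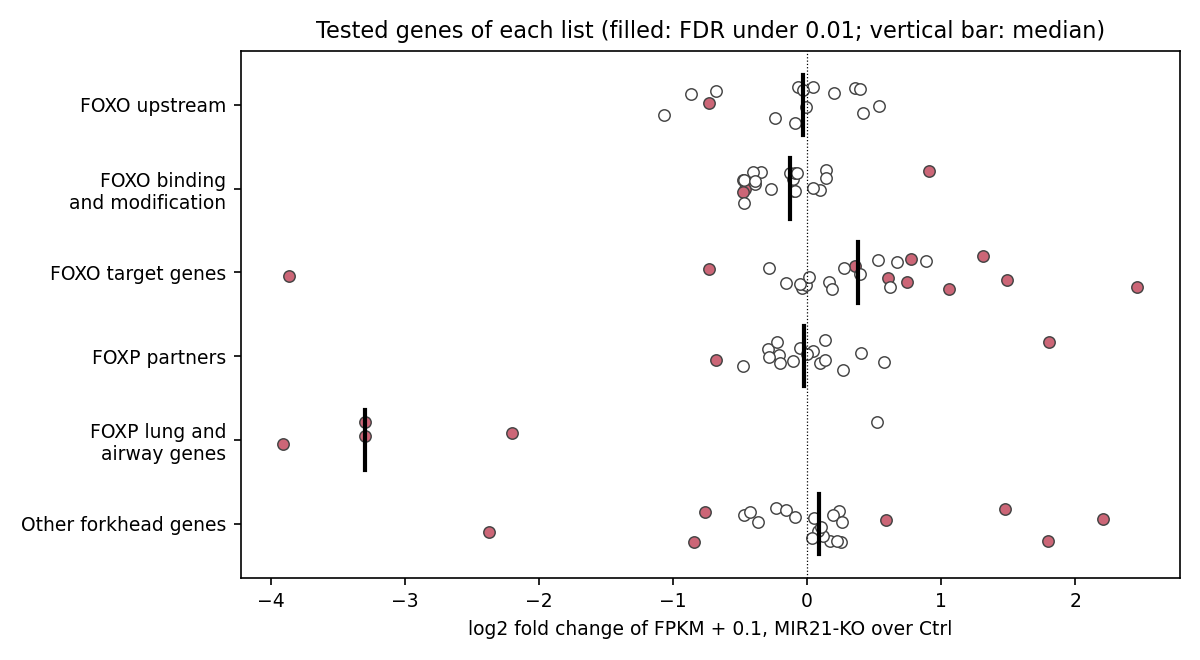
Log2 fold change of FPKM + 0.1 in MIR21-KO over Ctrl (horizontal axis) for each tested gene of 6 lists (rows), with filled points at an FDR under 0.01 and a bar at each list's median. The median of the FOXO target genes was 0.38 with 8 called higher and 2 lower, and the filled lung and airway points are AGR2, SOX2, MUC5AC and SPDEF, of which MUC5AC and SPDEF were tested only because of their Ctrl level.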

How the data were processed

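The authors sequenced strand-specific polyA libraries on a HiSeq instrument and deposited 1 table with gene length and the FPKM of each library. The submitters' processing notes name cutadapt 1.14, HISAT2 2.1.0, SAMtools 1.5, featureCounts 1.5.3, edgeR 3.18.1 and hg38. The authors' own log2 fold changes, p-values and FDRs in the table were not used. FPKM times gene length gave whole reads (within 0.01 reads) for 100% of values, and the library sizes implied by the FPKM were 0.950 to 1.03 times the read sums. Members and lists were chosen with earlier results of these data known. The test was that of limma 3.58.1 (R 4.3.3) on log2(FPKM + 0.1) for all genes averaging 0.5 FPKM or more (eBayes with trend and robust fitting, two-sided, Benjamini-Hochberg adjustment over 16006 genes, call at FDR under 0.01). Fold changes are on that scale, which understates those of low genes. The fit was tested on simulated data. Since the deposited values are FPKM and not counts, this test took the place of a count model. Limma voom on recovered reads with trimmed-mean scaling was run as an alternative. Other alternatives varied pseudocount, filter, scaling, variance fitting, threshold, replicate block and libraries. Named were the 6 members, the called forkhead genes (up to 8), up to 3 genes called higher and 3 lower per other list by smallest p, transcripts named after a member, markers, the deleted locus and the 3 most similar genes per member. In lists with few calls all were named.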

Additional observations from a re-analysis of the deposited data

How the results depend on the processing

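The number of genes called, 2568 in the reported fit, was 5114 at an FDR threshold of 0.05 and 784 to 3418 when 1 library was left out, and that of the context lists, 28, was 48 and 12 to 40. The lowest of these came without MIR21-KO replicate 2 (784 genes) and without Ctrl replicate 3 (12 context genes), and the highest without MIR21-KO replicate 3. The cause was not tested. FOXP1 was the 1 member called in each of these settings, and a threshold of 0.05 gave 2, with FOXO4 added. Same-numbered libraries did not deviate together (correlations -0.171, -0.0177 and -0.0174), so the replicate numbers give no pairing. With the replicate block 651 genes, 11 context genes and 1 member were called. Voom gave 3432 and 38, no filter 1810 and 23, no trend and no robust fitting 1946 and 21. The fold change of FOXO3B, 0.10, ranged from -0.11 to 0.20 and that of FOXO6, 0.26, from -0.077 to 0.60 when 1 library was left out. No tested member and no called gene of the lists changed sign in an alternative. The genes named for a similar pattern were not recomputed. Depth limits FOXO4 (35 to 73 reads) and FOXP2 (0 reads) most.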
